A study of Caenorhabditis elegans with 2 samples.

Results

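A set of 313 strong EFL-1 binding peaks lay upstream of the start site of a single protein-coding gene in young adult Caenorhabditis elegans. They were drawn from 2802 peaks on the nuclear chromosomes, of which 637 were strong, and each of the 313 belonged to a different gene. A peak was selected on the signal value that the authors deposited for it, which had to be at least 150, and on the position of its summit, the base of highest signal in the peak. The summit had to lie within 500 bp of the annotated start sites of exactly 1 protein-coding gene and upstream of the nearest of them. The selected peaks were 11.2% of the 2802 peaks, and the genes below them were 1.57% of all 19973 nuclear protein-coding genes. The animals were hermaphrodites of the transgenic strain YL478, in which a GFP-FLAG tag is fused to the C-terminal end of EFL-1, and chromatin of whole worms was precipitated with an antibody to GFP after sonication. There was 1 group, with 2 biological replicates, and no other genotype, treatment or stage. The labels describe an insertion targeting efl-1, and no source used here states its promoter, its copy number or whether the untagged gene remained functional. The deposited signal entered through both replicates together, so the signal values below are descriptions and carry no test.

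E2F factors bind DNA as a pair with a DP protein, DPL-1 in the worm, and are best known for genes of DNA synthesis and the cell cycle. EFL-1 and DPL-1 also belong to DREAM, a complex with the Rb-like protein LIN-35 in which LIN-54 binds a second DNA element, the CHR. In the adult gonad the same pair is known for its requirement in oogenesis and early embryonic patterning. Young adult hermaphrodites hold a large germ line with growing oocytes beside the somatic tissues, and a peak from whole animals does not tell in which cells the site was occupied.

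The DNA below the strongest peaks is shown because some of these peaks held an E2F core and others did not. The E2F core was searched on both strands in the 4 forms TTCCCGC and TTCGCGC and, with G as the third base, TTGCCGC and TTGGCGC. The CHR-like element was searched as TTCGAA or as TTTGAA. A match is a string of letters and not a proven site. Each window below covers 100 bp on either side of the summit on build ce11, read along the gene from 5′ to 3′ in the RefSeq genome sequence. Capitals mark the E2F core, on either strand, in the 3 strongest windows that held one. The genes encode HCP-1, a CENP-F-like kinetochore protein; NASP-2, a histone chaperone; and PIE-1, a zinc-finger protein of the germ line.
hcp-1, chrV:6593809-6594009, plus strand: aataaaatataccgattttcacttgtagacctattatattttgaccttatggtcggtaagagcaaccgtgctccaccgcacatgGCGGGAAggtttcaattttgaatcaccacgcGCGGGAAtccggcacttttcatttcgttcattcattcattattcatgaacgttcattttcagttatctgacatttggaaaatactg
nasp-2, chrV:13312363-13312563, minus strand: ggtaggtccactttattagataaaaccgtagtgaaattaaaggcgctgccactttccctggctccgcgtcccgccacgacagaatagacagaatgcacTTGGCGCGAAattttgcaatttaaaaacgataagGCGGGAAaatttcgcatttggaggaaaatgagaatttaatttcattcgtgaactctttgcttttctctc
pie-1, chrIII:12426660-12426860, plus strand: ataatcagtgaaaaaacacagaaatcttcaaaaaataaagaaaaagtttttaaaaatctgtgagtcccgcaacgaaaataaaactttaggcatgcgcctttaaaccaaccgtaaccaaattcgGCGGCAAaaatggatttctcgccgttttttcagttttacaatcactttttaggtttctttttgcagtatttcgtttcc

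The cores of hcp-1 and pie-1 read against the gene and appear as the reverse complement of the forms above, and in nasp-2 a core on each strand overlapped to give the longer run in capitals. The signal at hcp-1 was 2074 for both replicates together, 995 in replicate 1 and 1096 in replicate 2. At nasp-2 the values were 1967, 984 and 987 in the same order. At pie-1 they were 1937, 1051 and 900. The replicates were nearly level at nasp-2, while replicate 2 was the higher at hcp-1 and replicate 1 at pie-1. The strongest and the third strongest peaks of the set had no E2F core. They lay 290 bp upstream of rpl-3 and 459 bp upstream of rpl-35, both genes of the large ribosomal subunit, and each held a CHR-like element against the gene, shown in capitals as TTCAAA, the reverse complement of TTTGAA.
rpl-3, chrIII:3867464-3867664, plus strand: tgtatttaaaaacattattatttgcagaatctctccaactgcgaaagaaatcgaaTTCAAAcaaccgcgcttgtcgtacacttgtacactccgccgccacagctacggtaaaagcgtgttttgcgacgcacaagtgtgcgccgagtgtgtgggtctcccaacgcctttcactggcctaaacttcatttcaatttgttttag
rpl-35, chrIII:7854575-7854775, plus strand: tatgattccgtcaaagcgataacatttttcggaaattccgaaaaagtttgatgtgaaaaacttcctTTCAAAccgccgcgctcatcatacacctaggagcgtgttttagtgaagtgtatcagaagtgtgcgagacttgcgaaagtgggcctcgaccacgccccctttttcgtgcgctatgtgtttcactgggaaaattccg

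The peak at rpl-3 had a signal of 2554, with 1250 in replicate 1 and 1298 in replicate 2. At rpl-35 the signal was 2011, with 1016 and 1020. The rest of the 20 strongest stood at genes of several kinds. They included sgo-1, which encodes a shugoshin-like protein, with a signal of 1698; cdc-48.1, an AAA ATPase that extracts ubiquitylated proteins, with 1690; and pygl-1, a glycogen phosphorylase, with 1590. Others were gpd-1, a glyceraldehyde-3-phosphate dehydrogenase, with 1356; tasp-1, a threonine aspartase, with 1360; and tba-2, an alpha tubulin, with 1235. The kinase gene kin-35 had 1401, and F43G6.16, T19H12.2 and F54E12.2 had 1583, 1336 and 1225. Of the 20, the peaks at rpl-3, rpl-35 and kin-35 lacked an E2F core.

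Genes of oogenesis and the early embryo made up the largest group among 19 gene lists when only strong peaks upstream of a single gene were counted. Of the 64 genes of that list 25 had a strong single-gene upstream peak, called a member peak below, which is 39.1% beside 1.57% of all protein-coding genes. The lists were drawn up with earlier results of these data known, so the share is a description. The median signal of the 25 peaks was 610, beside 299 over all 313. The plot of signal by gene gives each of these values with those of both replicates.

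**Figure D1:**
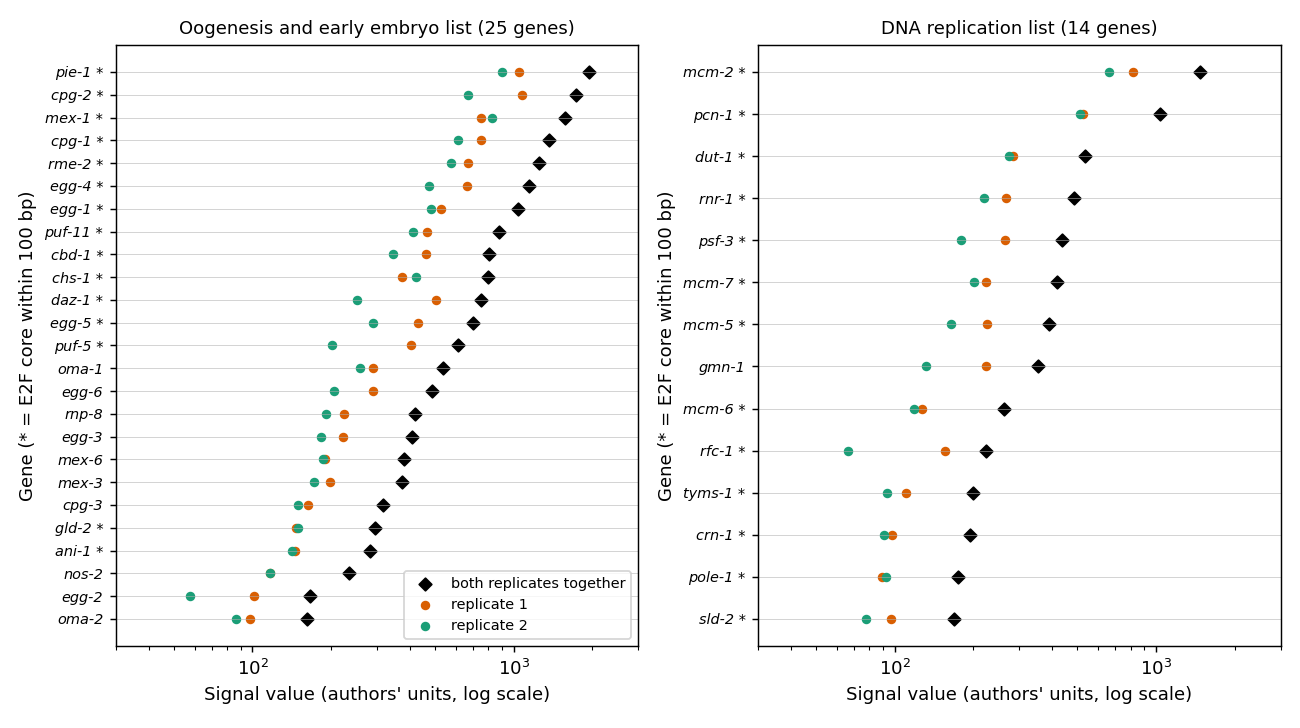
Signal values of the strong single-gene upstream peaks at the 25 genes of the oogenesis list and the 14 genes of the DNA replication list, on a logarithmic axis in the authors' units. Diamonds are the value for both replicates together and circles those of each replicate, and an asterisk marks an E2F core within 100 bp of the summit. The oogenesis peaks ran from 162 at oma-2 to 1937 at pie-1, and the 13 strongest of them all held a core.

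The list included genes of the eggshell and the oocyte surface. EGG-1 to EGG-5 are proteins of the oocyte surface and cortex that act at fertilization and egg activation. All 6 genes named egg had a member peak, from 167 at egg-2 to 1143 at egg-4. This count goes by name, and egg-6 is not among the proteins just described. The list holds egg-6 all the same, so it is among the 25 genes and in their motif counts. The values at egg-1 were 1036 together, 528 in replicate 1 and 482 in replicate 2, and those at egg-3 were 407, 222 and 183. An E2F core lay under egg-1, egg-4 and egg-5 and not under egg-2, egg-3 and egg-6. Of the chondroitin proteoglycan genes of the eggshell, cpg-2 had 1740, with 1078 in replicate 1 and 668 in replicate 2, cpg-1 had 1368, and cpg-3 had 316 without a core. Of 13 genes named cpg 4 had a member peak, and the fourth, cpg-4, had 347 with a core. The chitin synthase gene chs-1 had 801 and cbd-1, a chitin-binding eggshell protein, 807. Both had a core. The yolk receptor gene rme-2 had 1249, with 671 in replicate 1 and 575 in replicate 2, and its summit was 82 bp from the start. These families were singled out after their values were seen.

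RNA-binding regulators of the oocyte and early embryo formed the other part of the list. The gene mex-1, a zinc-finger protein of the early embryo, had a signal of 1577, with 752 in replicate 1 and 828 in replicate 2. Its relatives pie-1, mex-6, oma-1 and oma-2 had 1937, 382, 539 and 162, and of these pie-1 alone had an E2F core. The Pumilio-family genes puf-11 and puf-5 had 878 and 610. The gene daz-1, an RNA-binding protein needed for oogenesis, had 752. Replicate 1 exceeded replicate 2 at puf-5 with 404 against 202 and at daz-1 with 504 against 251. The KH-domain gene mex-3, the cytoplasmic poly(A) polymerase gene gld-2 and the Nanos gene nos-2 lay lower, with 373, 296 and 234. Over all 313 peaks 55.9% held an E2F core, 69.6% a CHR-like element, 40.3% both and 14.7% neither. Of the 25 oogenesis peaks 15 held an E2F core, 12 a CHR-like element, 7 both and 5 neither. The 5 were at egg-3, mex-3, cpg-3, nos-2 and oma-2.

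DNA replication was the second group by member peaks, with 14 of 45 genes, or 31.1%. Of the hexameric MCM helicase, mcm-2 had a signal of 1470, with 817 in replicate 1 and 659 in replicate 2. At mcm-7, mcm-5 and mcm-6 the signal was 418, 388 and 262. The sliding clamp gene pcn-1 had 1040, with 524 and 513 in the replicates, and the clamp loader gene rfc-1 had 223, with 155 and 66.0. Nucleotide supply was represented by dut-1, a dUTPase, with 533; rnr-1, the large subunit of ribonucleotide reductase, with 484; and tyms-1, thymidylate synthase, with 200. The peaks at psf-3 of the GINS complex, crn-1, the flap endonuclease, pole-1 of DNA polymerase epsilon and sld-2 lay between 169 and 437. Over all 313 peaks 55.9% held an E2F core, 69.6% a CHR-like element and 40.3% both. A core was present in 13 of the 14 replication peaks and a CHR-like element in 12, with 11 holding both. The exception was gmn-1, the geminin gene that restrains origin licensing, whose window held 4 CHR-like elements and no core at a signal of 354.

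Cores of some replication and oogenesis peaks are aligned as examples, and the lines do not represent the share of each form in the 2 lists. Stronger peaks with a core were passed over, among them dut-1 with 533 and cpg-2 with 1740. Forms that are not shown for a list occurred in it too. The core nearest to the summit was TTCCCGC at rfc-1 of replication, TTGCCGC at pie-1 and TTGGCGC at daz-1 of oogenesis. Each line gives the core nearest to the summit in capitals with 10 bases on either side, in the direction of the core, on build ce11. The replication cores come first.
mcm-2, chrII:12006834-12006860, plus strand: aaacgtcaacTTCGCGCcctcgcctct
pcn-1, chrIV:4049644-4049670, plus strand: cgaatgaaacTTCGCGCctcaatttac
rnr-1, chrIII:9228880-9228906, plus strand: aaacacaattTTGCCGCgggttactgt
mcm-7, chrV:4347008-4347034, minus strand: ccgttcgaatTTCGCGCgtttgcctcc
mcm-5, chrIII:4291444-4291470, plus strand: ttgaaaatttTTGGCGCccgcgcctca
mex-1, chrII:11968443-11968469, minus strand: aatccaaaatTTCCCGCtccacgggct
cpg-1, chrIII:4489166-4489192, minus strand: aaatcaaaatTTCCCGCagtttttagt
rme-2, chrIV:5469959-5469985, minus strand: taggcaaaaaTTCGCGCcttaaaatga
egg-1, chrIII:5728055-5728081, minus strand: aatttatattTTCCCGCtaagaataac
puf-11, chrIV:6421387-6421413, minus strand: atcccaaaatTTCCCGCgcaaaatgaa

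Among the replication peaks with a core, 7 of 13 held TTCGCGC and 4 held TTCCCGC. Among the oogenesis peaks with a core, 6 of 15 held TTCGCGC and 7 held TTCCCGC. Over all 175 peaks with a core the 2 forms occurred in 74 and 57, and TTGGCGC and TTGCCGC in 56 and 29, so either list holds a small part of them. These counts were made after the sequences were seen and the difference between the lists was not tested. Directly before it T stood in 53.7% of the 175 nearest cores, and A in 49.7% at the third base before it. Directly after it the base was C in 36% and G in 41.1%.

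Chromosome segregation, chromatin and DREAM followed. Of 87 genes for segregation and the cell cycle 11 had a member peak, which is 12.6% beside 1.57% of all protein-coding genes. Beside hcp-1 and sgo-1, lin-5, which positions the spindle, had 838, with 405 in replicate 1 and 434 in replicate 2. The polo kinase gene plk-1 had 769 without a core, and the cyclin B gene cyb-3 had 606 with a core. Of 54 germ line chromatin genes 9 (16.7%) had a member peak. A core lay in 55.9% of all 313 windows and in 8 of these 9. They included nasp-2; unc-85, an Asf1-like histone chaperone, with 862; and isw-1, a chromatin remodeller, with 833. The genes mes-2 and mes-6 of the H3K27 methyltransferase complex had 353 and 325. Of 12 E2F, DP and DREAM genes 2 (16.7%) had a member peak. The gene lin-9, a DREAM subunit, had 1036, with 525 in replicate 1 and 527 in replicate 2. The gene efl-1 itself had 382, with 179 and 197, and its summit lay 198 bp upstream of the start. The windows of lin-9 and efl-1 both held a core and CHR-like elements. Of the 2802 peaks 2 others lay in efl-1 or within 500 bp upstream of it, while 284 of the 313 genes had none. The labels do not state the copy number of the tagged insertion, and its part in the signal at efl-1 was not tested.

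Protein turnover, nuclear transport and respiration were described by 4 further lists. Of 58 genes for ubiquitin ligases and CDC-48 partners 9 had a member peak, which is 15.5% beside 1.57% of all protein-coding genes. They included cdc-48.1, smo-1, which encodes SUMO, at 655 and the SUMO-conjugating enzyme gene ubc-9 at 470. Of 45 nuclear pore and transport genes 6 (13.3%) had a member peak. Both motifs lay in 40.3% of all 313 windows and in each of the 6. The importin alpha gene ima-2 was the strongest of these, with 906, and it held 4 cores, the most of any window. It was followed by imb-3, a beta-type importin, with 612 and the nucleoporin gene npp-8 with 299. Of 33 proteasome genes 4 (12.1%) had a member peak. A core lay in 55.9% of all 313 windows and in all 4 of these. They were rpn-6.1 with 722, pas-6 with 496, rpn-11 with 296 and pas-5 with 229. Of 44 mitochondrial respiration genes 2 (4.5%) had a member peak, cox-5B with 711 and cox-5A with 564, both encoding subunits of cytochrome c oxidase.

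Translation factors formed another list. Of 42 translation factor genes 5 had a member peak, which is 11.9% beside 1.57% of all protein-coding genes. A core lay in 55.9% of all 313 windows and in 1 of the 5, iff-1. A CHR-like element lay in 69.6% and in 4 of the 5. The strongest were eif-3.C, a subunit of initiation factor eIF3, with 701, iff-1, an eIF5A gene, with 342 and gcn-1 with 248. Translation genes outside the list also had member peaks, among them eif-2A with 247, whose window held 3 cores. A count of ribosomal protein genes was added after the values were seen. Of 78 genes named rpl or rps 6 had a member peak, beside 1.57% of all protein-coding genes, and none of the 6 held a core. They were rpl-3, rpl-35, rpl-24.2 with 526, rpl-41.2 with 376, rps-1 with 255 and rps-28 with 166. The 4 rpl genes held a CHR-like element and the 2 rps genes neither motif, and no difference from the whole set was tested. Their summits lay 153 to 459 bp upstream.

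The remaining lists held 3 members or fewer each. Meiotic chromosome genes gave 3 of 48 (6.25%), syp-5 of the synaptonemal complex with 788, zhp-1 with 196 and pch-2 with 155. DNA repair and checkpoint genes gave 3 of 51 (5.88%), smc-5 with 422, the FANCD2 gene fcd-2 with 268 and the checkpoint kinase gene chk-1 with 181. P granule and small RNA genes gave 3 of 57 (5.26%), tofu-6 with 409, znfx-1 with 388 and the Argonaute gene wago-1 with 254. Of 59 splicing genes snr-6 alone had a member peak (1.69%), with 172. The share of all protein-coding genes with a member peak was 1.57%. These counts cover only strong peaks upstream of a single gene. At least 1 of the 2802 summits lay within 500 bp of a start site at 30 of the 48 meiotic and 20 of the 51 repair genes. For P granule and small RNA genes it was 24 of 57, and for splicing genes 23 of 59. The same count over all genes is not given here. For markers of other cells the counts of member peaks can be read only against the 1.57% of all genes. At that share lists of this size would hold about a gene each or none. None of 57 sperm genes, 36 body muscle genes, 34 intestine genes and 40 hypodermis and cuticle genes had a member peak, and of 57 neuron genes 1 did (1.75%), tdc-1 with 164. The lists accounted for 98 of the 313 genes and 215 belonged to none of them.

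The sequence under the peaks was not used to select them, so it could be compared with that of other peaks. An E2F core lay within 100 bp of the summit in 175 of the 313 peaks, which is 55.9% (exact 95% interval 50.2 to 61.5). Of 762 weaker peaks in the same position, upstream of a single gene with a signal under 150, 195 or 25.6% held a core. The odds ratio was 3.68 (95% interval 2.77 to 4.91; two-sided Fisher's exact test, Benjamini-Hochberg adjusted p = 9.14e-20 over 9 such tests). The core occurred in 6.92% of windows of the same length centred 193 bp upstream of all protein-coding genes. In 48 of the 313 peaks, or 15.3%, there were 2 or more cores, against 24 or 3.15% of the weaker peaks (odds ratio 5.56, 95% interval 3.27 to 9.69; Fisher's exact test, adjusted p = 6.53e-11). The summits of the weaker peaks were placed less exactly, with a median of 22 bp between the replicates' summits against 9 bp, and the part of this in the difference was not tested. Peaks are not independent replicates, and the intervals cover counting error only.

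Strong peaks in other positions were compared in the same way. Of 162 strong peaks shared by 2 or more genes 84, or 51.9%, held a core. The odds ratio of the single-gene peaks to these was 1.18 with an interval of 0.790 to 1.75 (Fisher's exact test, adjusted p = 0.562). Of 136 strong peaks with no start site within 500 bp, 61 or 44.9% held a core, and the odds ratio was 1.56 with an interval of 1.02 to 2.39 (Fisher's exact test, adjusted p = 0.0889). Neither difference passed the threshold of 0.05 after adjustment, and the intervals reach up to ratios of 1.75 and 2.39. The call for peaks away from start sites changed with the settings: with a motif window of 50 bp the odds ratio was 1.77 (Fisher's exact test, adjusted p = 0.0168), and with a signal threshold of 100 it was 1.502 (adjusted p = 0.0171).

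**Figure D2:**
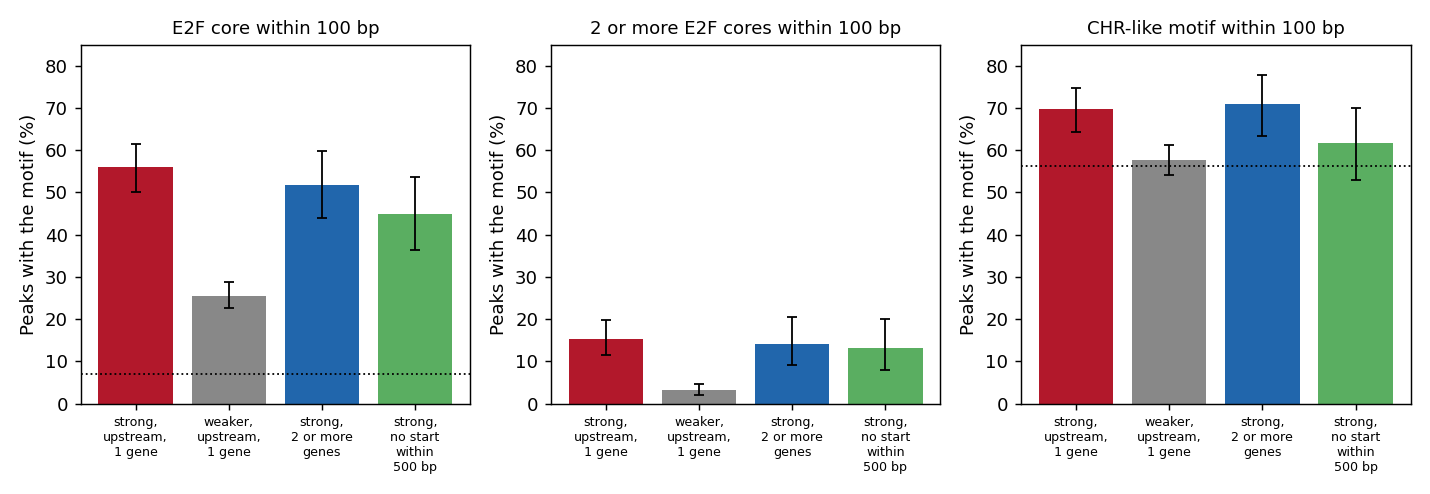
Percentage of peaks with an E2F core, with 2 or more E2F cores and with a CHR-like element within 100 bp of the summit in 4 groups of peaks. Bars are the share of peaks, error bars the exact 95% binomial interval, and dotted lines the share of equally long windows upstream of all protein-coding genes. For the E2F core the strong single-gene peaks stood at 55.9% and the weaker ones at 25.6%, above a line at 6.92%.

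The CHR-like element is short and frequent. It occurred in 218 of the 313 windows, or 69.6%, against 440 of 762 or 57.7% of the weaker peaks and 56.3% of the windows of all promoters. The odds ratio to the weaker peaks was 1.68 (95% interval 1.26 to 2.25; Fisher's exact test, adjusted p = 7.80e-04). This call was lost when all groups were formed anew with a start window of 200 bp in place of 500 bp (odds ratio 1.40, Fisher's exact test, adjusted p = 0.133). The strong single-gene group then held 237 peaks. Strong peaks shared by 2 or more genes had it in 71.0% and strong peaks away from start sites in 61.8%, with adjusted p = 0.833 and p = 0.226 by Fisher's exact test. The second comparison passed the threshold with a signal threshold of 100 (odds ratio 1.51, Fisher's exact test, adjusted p = 0.0171) and with a motif window of 150 bp (1.96, adjusted p = 0.0202). Both motifs occurred in 126 of the 313 windows, the core alone in 49, the CHR-like element alone in 92 and neither in 46.

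**Figure D3:**
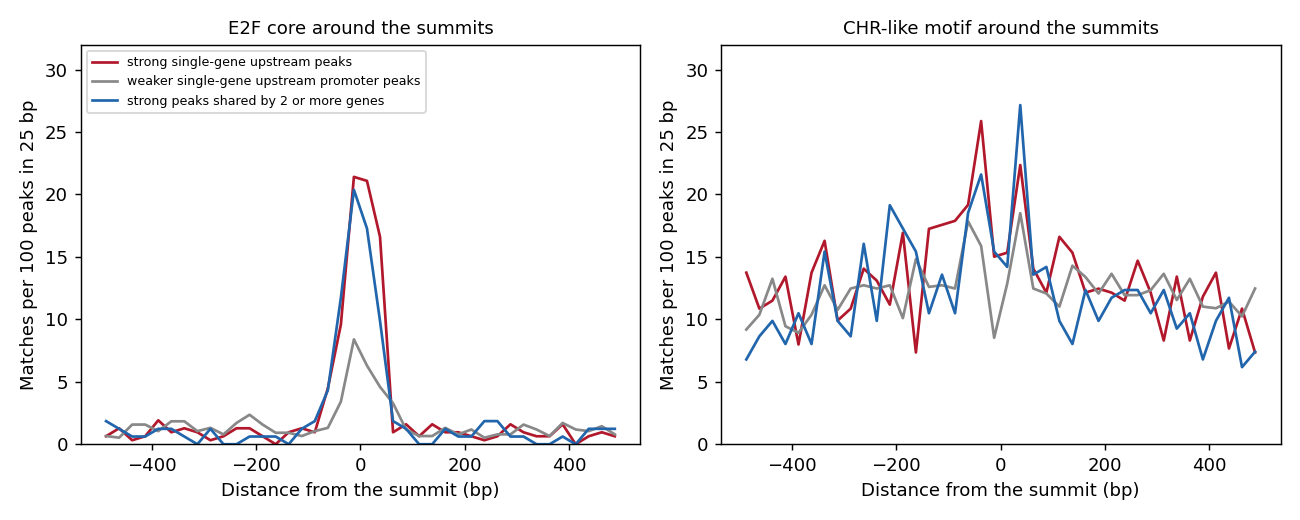
Number of E2F cores (left) and CHR-like elements (right) per 100 peaks in each 25 bp, against the distance from the summit in bp along the chromosome, for strong single-gene peaks, weaker single-gene peaks and strong peaks shared by 2 or more genes. The core of the strong single-gene peaks reached 21.4 per 100 peaks next to the summit, and the CHR-like element reached 25.9 at 25 to 50 bp from it.

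The core was concentrated at the summit. Of the members with a core in only the central 201 bp or only the 202 bp of flanks 400 to 500 bp away, 164 had it in the centre and 4 in the flanks (97.6% central, exact 95% interval 94.0 to 99.4; two-sided exact binomial test, p = 1.75e-43). For the CHR-like element the counts were 107 and 46 (69.9%, interval 62 to 77.1; exact binomial test, p = 8.93e-07). This last call was lost with a motif window of 50 bp, where 49.4% were central (exact binomial test, p = 0.937) and the centre spanned 101 bp against 202 bp of flanks. The nearest core lay a median of 16 bp from the summit, within 20 bp in 101 of the 175 peaks and within 50 bp in 170. Of 239 cores in all, 110 read along the gene and 129 against it. Where both motifs were present, the nearest pair had a median distance of 17 bp between centres and did not overlap, and in 70 of 126 peaks it was within 20 bp. The same distance was within 20 bp in 55 of 115 weaker peaks that held both, with a median of 23.5 bp.

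Within the set, the median signal was higher for peaks with a core than without, although the classes overlapped widely. The highest signal of all, 2554 at rpl-3, had no core. Signal was used to select the set, so these values are a description and were not tested. The median signal was 256 over the 138 peaks without a core, 311 over 127 with 1 core and 500 over 33 with 2. The 14 peaks with 3 cores had a median of 467. Those 14 included nasp-2, pygl-1 and tba-2, whose signals were 1967, 1590 and 1235. When the set was split by signal into 3 classes of nearly equal size, 69.5% of the strongest class held a core, 53.8% of the middle class and 44.2% of the weakest. The CHR-like element was at 69.5%, 71.2% and 68.3% in the same classes. The strongest peaks without a core were at rpl-3, rpl-35, kin-35 and ddp-1, a small translocase of the mitochondrial intermembrane space, which had 899. The median base composition was 37.8% G and C in the windows both with and without a core.

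The summits lay a median of 193 bp upstream of the annotated start site, with quartiles of 120 and 290 bp and a full span of 2 to 500 bp. The annotated start is the 5′ end of a transcript and was not compared with measured starts of transcription. The summits were within 200 bp in 165 of the 313 peaks, or 52.7%, and in 50.7% of the weaker ones (odds ratio 1.09, 95% interval 0.827 to 1.43; Fisher's exact test, adjusted p = 0.615). The annotation placed 290 summits between genes, 16 in an intron, 7 in an untranslated exon and none in coding sequence. The next gene upstream was on the same strand for 173 peaks, at a median distance of 279 bp from the summit, and on the opposite strand for 128, at a median of 1169 bp. The latter is bounded by the selection, which left out peaks near the starts of 2 genes. A further 12 summits lay inside another gene. A start site of a non-coding gene was within 500 bp of 29 summits.

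**Figure D4:**
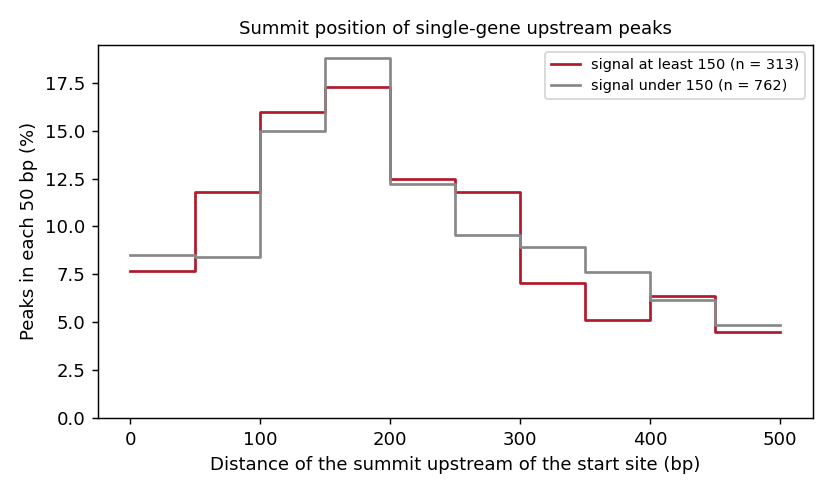
Percentage of peaks in each 50 bp of distance between the summit and the start site, upstream of a single gene, for the 313 strong and the 762 weaker peaks. Both outlines were highest at 150 to 200 bp, with 17.3% of the strong and 18.8% of the weaker peaks.

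Each replicate list held a region at all 313 peaks. The lists were long, with 30000 regions each, and the peaks came from a list cut by reproducibility, so this overlap is not an independent check. Of the 762 weaker peaks 756 had a region in replicate 1 and 757 in replicate 2. At the 313 peaks the values ran from 56.8 to 1250 in replicate 1, with a median of 164. In replicate 2 they ran from 23.2 to 1298, with a median of 141.9. The values of the 2 replicates were within 2-fold of each other at 295 peaks. At the other 18 replicate 1 was the higher, and replicate 1 was the higher at 223 of all 313. Whether the lists share a scale is not stated, and read depth is unknown. The widest ratio was at vars-1, a valyl-tRNA synthetase gene, with 129 in replicate 1 and 23.2 in replicate 2. It was followed by era-1 with 133 and 41.2, fcd-2 with 202 and 69.4, and metr-1, a methionine synthase gene, with 242 and 96.9. At the other end were F35C8.8 with 62.1 and 121, F35D11.4 with 56.8 and 97.01, C04B4.2 with 57.7 and 95.4, and ptc-1, a Patched-family gene, with 93.3 and 153. Among the 637 strongest regions of each replicate list, 287 and 286 of the 313 were found, 262 were found in both and 2 in neither. The replicates' summits were within 50 bp of each other at 309 peaks and over 100 bp apart at Y54G11A.2 and kel-3.

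**Figure D5:**
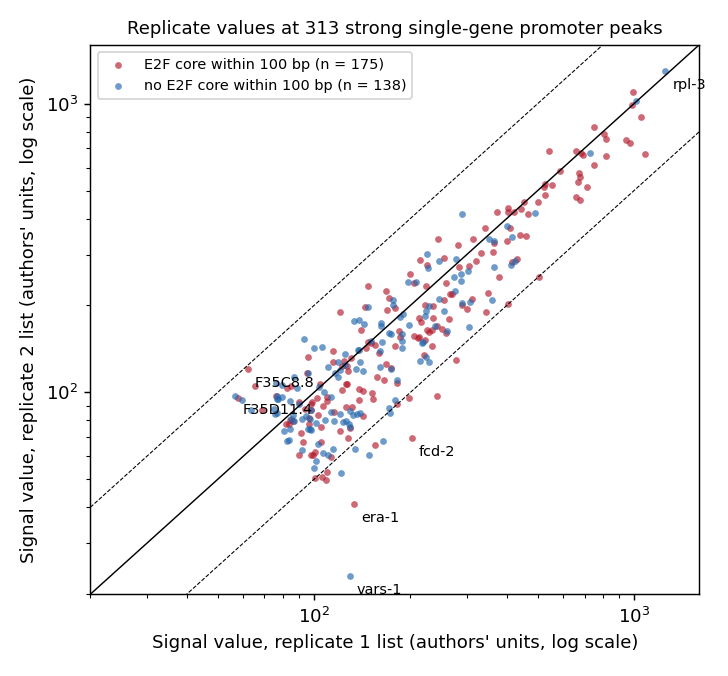
Signal value in the list of replicate 2 against that of replicate 1 at the 313 strong single-gene upstream peaks, on logarithmic axes in the authors' units, with and without an E2F core. The solid line marks equal values and the dashed lines a 2-fold difference; 295 peaks lay between the dashed lines and the 18 outside them were all higher in replicate 1, with vars-1 farthest.

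The peaks next to the threshold show how it cut the set. Just inside it were vars-1 with 151, F35D11.4 with 151, trm-2A with 151 and F46F11.7 with 150.1. Just outside were T23H2.3 with 149.7, W01D2.1 with 148, rml-1 with 148 and the splicing gene mog-4 with 148. The replicates gave 75.5 and 70.8 at T23H2.3, closer together than at vars-1. None of the 4 inside held a core, and T23H2.3 and rml-1 outside did. Of the 313 windows 302 held no stretch of 36 bases found elsewhere in the genome, and in none did such stretches make up most of the window.

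The genes were spread over the autosomes and scarce on the X chromosome, and the cause of this was not tested. The share of protein-coding genes with a member peak was 2.36% on chromosome I, 2.38% on II, 2.35% on III, 1.40% on IV and 1.00% on V, and 0.183% on X. The 5 X-linked members were 1.60% of the set, and X held 3.02% of the weaker peaks (odds ratio 0.522, 95% interval 0.154 to 1.42; Fisher's exact test, adjusted p = 0.318). The 5 were mrp-4 with 262, a multidrug resistance transporter gene, C49F5.6 with 223, F35C8.8 with 187, F31F6.3 with 157 and C04B4.2 with 153. Their values in replicate 1 were 130, 95.8, 62.1, 68.9 and 57.7, and in replicate 2 they were 132, 132, 121, 86.97 and 95.4, each at least as high as in replicate 1. All 5 windows held a single E2F core and no CHR-like element.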

How the data were processed

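EFL-1 binding was measured by chromatin immunoprecipitation and sequencing in 2 biological replicates of 1 group. The authors deposited narrowPeak lists on build ce11: a list per replicate, a list for both replicates together and an optimal list, cut by the irreproducible discovery rate (IDR), each against a shared control, per the texts deposited with the samples. No source used here names the aligner, the caller or the thresholds. The signal per region is the authors' deposited value on an unstated scale, and was used only within a list, with the replicates' values set side by side. The authors' −log10 q-value does not vary over the optimal list and ranked nothing. The summit is the deposited other value, an offset, added to the region's start. The antibody is named for efl-1 in a label and as anti-GFP in the description, which is followed here. Lists on build ce10 were not used. Read depth is unknown.

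Start sites were the 5′ ends of protein-coding transcripts in Ensembl release 115 on WBcel235, the same assembly as ce11. A replicate's value was that of its strongest region overlapping the peak by 1 bp or more. Motifs were counted within 100 bp of the summit. Fisher's exact tests were adjusted over 9 comparisons (Benjamini-Hochberg, threshold 0.05) and centre and flanks compared with exact binomial tests, in Python 3.11.15 with scipy 1.17.1. The assignment and motif search were checked on simulated peaks. The members and gene lists were chosen with earlier results of these data known, and 34 of 957 list names were not matched. Genes are named for the 20 strongest peaks, the 3 strongest of each list, the 4 with most cores, the 4 strongest without a core, the 4 on each side of the threshold, the 4 at each end of the replicate ratio and those on X; other genes were chosen after their values were seen. Alternatives were other thresholds, start windows, motif windows, motif forms, annotations and leaving out a replicate. The sequence of 1 peak is not reported here.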

Additional observations from a re-analysis of the deposited data

How the results depend on the processing

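Of 144 alternative values, 128 kept their direction and their side of the threshold, or stayed within 1.5 times the count. With a signal threshold of 100 the set held 505 peaks, and the odds ratio to peaks away from start sites was then 1.502 for the E2F core and 1.51 for the CHR-like element (Fisher's exact test, adjusted p = 0.0171 for both). With a motif window of 50 bp the first was 1.77, and with 150 bp the second was 1.96. The list counts under other settings were added after the data were seen: a start window of 200 bp left 16 oogenesis genes and a start window of 1000 bp left 6 replication genes. For the CHR-like element against weaker peaks the start window of 200 bp gave 1.40 (Fisher's exact test, adjusted p = 0.133). Other changes of direction were as follows, all but the last in comparisons that had not passed the threshold. The CHR-like element against peaks shared by 2 or more genes gave 1.40 with a motif window of 150 bp, 1.11 with a threshold of 200 and 1.01 to 1.09 with a replicate left out. The core against the same peaks gave 0.957 when a T was required before it and 0.940 with a start window of 1000 bp. The share within 200 bp gave 0.897 to 1.12 with a replicate left out. The central share of the CHR-like element, which had passed, was 49.4% with a motif window of 50 bp, so that the call was lost (exact binomial test, p = 0.937); the centre then spans 101 bp and the flanks 202 bp. The causes of these changes were not tested. No paired analysis was possible because there is 1 group. Read depth is unknown, so no limit from depth can be given.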
